A study of Mus musculus with 4 samples.

Results

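The comparison described here set the tongue of mouse embryos at E14.5 (E for embryonic day) against the medial mandibular arch at E9.5, the latest and the earliest stage of the tissues that the labels call medial. Each tissue was measured on 1 array with 1 colour (Cy3), so the comparison rests on 2 of the 4 samples. RNA came from ICR embryos, an outbred stock with no transgene or treatment named in the labels. The 4 tissues were the medial mandibular arch at E9.5 (MMA, 12 embryos pooled), 4 pooled embryos each for the lateral lingual swellings (LLS) and the lateral part of the mandibular arch (LMA), both at E11.5, and again 4 for the E14.5 tongue (T). Of 26727 genes on the arrays, 17386 had a probe well above background in MMA or in T and were compared. Between 57.0% and 62.9% of the probes were well above background on the 4 arrays, and 0 spots were saturated. With 1 array per tissue there is no replicate check, no test between tissues was made, and stage, dissected structure and pool cannot be told apart.

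The tongue is built from the first pharyngeal arch and from tissue behind it. Neural crest cells give its connective tissue and tendons, cells from the occipital somites migrate in and form nearly all of its muscle, and the covering epithelium becomes stratified and carries the taste papillae. At the earlier stage the arch is an outgrowth of neural crest mesenchyme around a core of mesoderm and vessels, under a thin epithelium that sends growth factor signals to the mesenchyme.

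Genes of contracting muscle and of stratified epithelium stood highest in the E14.5 tongue, and genes of the early embryo, embryonic globin genes and homeobox genes of the arch stood lowest. Of the markers chosen for each label, the tongue genes Myog, Myod1, Acta1, Krt5, Krt14 and Krt13 were higher in T. The arch genes Hand2, Dlx2, Dlx5, Msx1 and Prrx1 were higher in MMA, and the arch gene Tfap2a stayed within 2-fold. Cell division genes differed by smaller factors, and most of them were lower in T. Ribosomal protein genes stayed within 2-fold. Levels are given as scaled signal, which is the signal after every array was brought to the same 75th percentile (467.5), and differences are in log2, T minus MMA, so that a difference of 1 is 2-fold. Where a probe was dim in 1 tissue, meaning not well above background, its level there was set no lower than the dimmest value well above background on its array (24.6 in MMA, 25.4 in T). Such a difference is a bound and is written with "at least" or "or lower", and medians of gene lists take bounds at their value. By rule a gene dim in MMA could be called higher in T but not lower, and a gene dim in T the reverse.

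In all, 3144 genes (18.1% of those compared) were at least 2-fold higher in T and 2402 (13.8%) at least 2-fold lower, with 1075 and 251 bounds among them. These shares stand beside the list counts below. The lists were chosen with earlier results of these data known, so a list count above these shares is a description and not a test. The median over all genes compared was -0.10. At a 4-fold difference the counts were 1546 and 372. Of the genes that differed by 2-fold, 56.7% were higher in T, and this share was 73.2% after cyclic loess, which moved the median of all genes by 0.28. Among the 14913 genes well above background in both tissues the share was 49.0% (2069 higher, 2151 lower), so the excess of higher genes lay in those dim in MMA. Differences are relative to the 75th percentile scaling throughout.

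**Figure D1:**
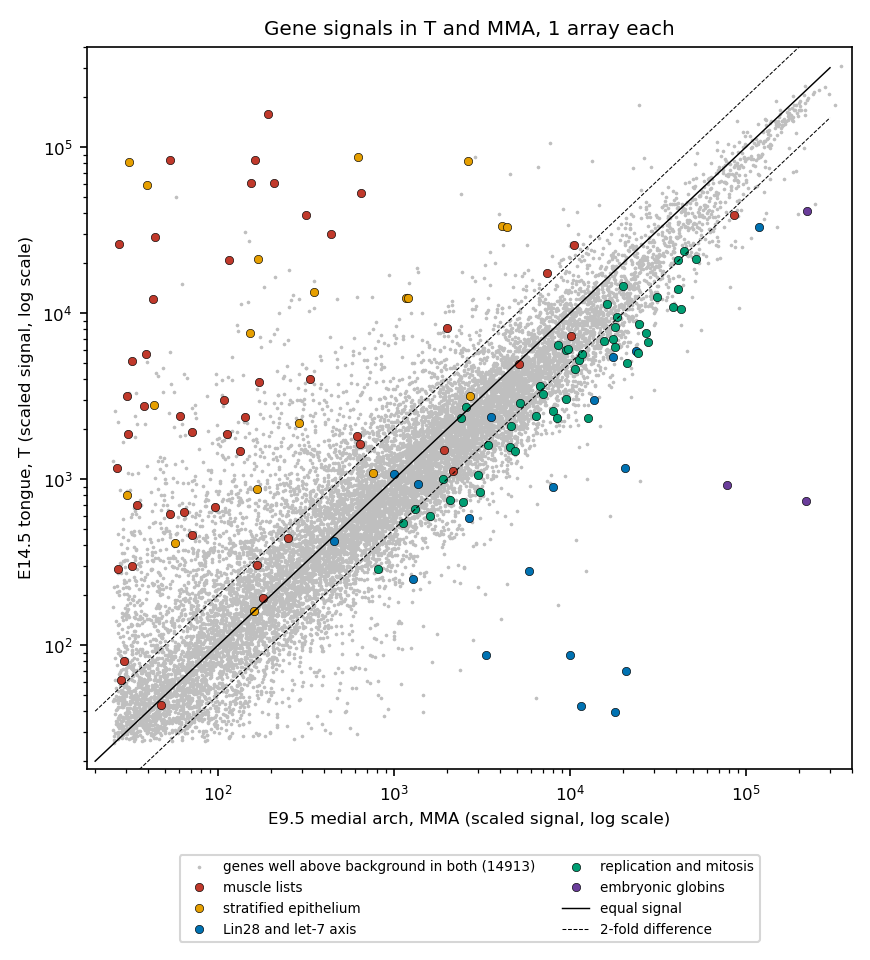
Scaled signal of each gene in the E9.5 medial arch (horizontal, log scale) and the E14.5 tongue (vertical, log scale), for the 14913 genes well above background in both, with 1 array per tissue and no error bars. Muscle and stratified epithelium genes lie mostly above the upper dashed line (2-fold higher in T), and Lin28 and let-7 axis genes, replication and mitosis genes and embryonic globin genes lie mostly below the diagonal of equal signal.

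Skeletal muscle contracts when calcium released from the sarcoplasmic reticulum lets myosin of the thick filament pull on actin of the thin filament. Muscle genes are often controlled through short promoter elements: E-boxes bound by the MyoD family, of which CAGCTG is the best known form, AT-rich sites bound by MEF2, and the CArG box bound by serum response factor. Upstream sequences are shown for the 5 muscle genes among the 10 highest differences whose sequence in the table holds at least 1 of these elements or TATAAA. They are the 250 bases before the annotated start of the gene, written 5′ to 3′ on the coding strand, from the RefSeq annotation of GRCm38.p6. Capitals mark CAGCTG, the element TATAAA, the MEF2 site and the CArG box, on either strand.
Acta1, chr8:123894776-123895025, minus strand: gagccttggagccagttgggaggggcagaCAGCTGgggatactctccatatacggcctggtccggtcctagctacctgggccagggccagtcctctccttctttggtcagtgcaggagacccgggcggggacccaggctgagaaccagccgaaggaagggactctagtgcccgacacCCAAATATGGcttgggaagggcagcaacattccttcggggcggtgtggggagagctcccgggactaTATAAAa
Actc1, chr2:114052876-114053125, minus strand: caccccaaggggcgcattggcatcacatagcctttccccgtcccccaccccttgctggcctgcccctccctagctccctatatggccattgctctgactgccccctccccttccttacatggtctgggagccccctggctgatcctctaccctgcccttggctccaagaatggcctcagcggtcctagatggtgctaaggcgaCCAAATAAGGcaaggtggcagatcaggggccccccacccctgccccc
Myl1, chr1:66945057-66945306, minus strand: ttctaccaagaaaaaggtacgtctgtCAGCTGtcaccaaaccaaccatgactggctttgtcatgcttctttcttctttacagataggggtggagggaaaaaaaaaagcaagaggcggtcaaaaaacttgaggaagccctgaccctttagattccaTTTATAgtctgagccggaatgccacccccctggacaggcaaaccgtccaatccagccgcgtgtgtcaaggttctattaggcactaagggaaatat
Mylpf, chr7:127211358-127211607, plus strand: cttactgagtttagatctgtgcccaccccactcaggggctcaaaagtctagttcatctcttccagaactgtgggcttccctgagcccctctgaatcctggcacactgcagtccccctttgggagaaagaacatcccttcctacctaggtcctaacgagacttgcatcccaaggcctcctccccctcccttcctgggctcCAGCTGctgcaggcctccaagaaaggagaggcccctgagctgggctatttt
Myh8, chr11:67276874-67277123, plus strand: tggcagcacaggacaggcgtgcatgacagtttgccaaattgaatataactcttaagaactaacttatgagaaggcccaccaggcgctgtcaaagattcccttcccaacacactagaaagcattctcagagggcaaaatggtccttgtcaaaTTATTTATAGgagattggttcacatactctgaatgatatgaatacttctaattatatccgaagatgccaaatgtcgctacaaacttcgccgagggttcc
The Acta1 sequence holds CAGCTG from -221, a CArG box from -73 and TATAAA from -7, Actc1 a CArG box from -47, Myl1 CAGCTG from -224 and TATAAA from -95, Mylpf CAGCTG from -51, and Myh8 a MEF2 site from -99 with TATAAA overlapping it from -96.

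Windows of 250 bases before to 50 after the start were then searched on both strands for the 89 genes of 5 lists (thick filament, thin filament, Z-disc and membrane, excitation and contraction, neuromuscular junction), of which 61 had a window in the RefSeq table. CAGCTG was found in 26 of them (42.6%), against 16.1% of all 27025 windows and 4 of 13 (30.8%) for genes of stratified epithelium. The MEF2 site was found in 9 (14.8%, against 3.26%), the CArG box in 7 of the 61 (against 1.57%) and TATAAA in 13 (21.3%, against 14.2%). The looser E-box CANNTG, which includes CAGCTG, was in 82.0% of the muscle windows, 84.6% of those of stratified epithelium and 72.1% of all windows. The window of Myl4, also among the 10 highest differences, held none of CAGCTG, the MEF2 site, the CArG box or TATAAA, which says only that these letters are not in that window.

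Regulators of the muscle lineage come first in the order of muscle formation. Of 18 listed regulators, all were compared, 12 were at least 2-fold higher in T and 2 at least 2-fold lower, and the list median was 2.16. Of the 12, 7 were bounds, and the median of the 10 regulators measured in both tissues was 0.84. Myog, the gene of myogenin, which drives myoblasts to differentiate, had scaled signals of 5.2 for MMA, 1392 for LLS, 3907 for LMA and 11041 for T. It was not well above background in MMA and was higher at each later stage, so T was at least 449-fold brighter (8.81). Myod1, which commits cells to the muscle fate, was at 5.2 for MMA, 443 for LLS, 843 for LMA and 1286 for T. MMA was again dim, LMA lay between LLS and T, and the difference was at least 5.71. Myf6, a later member of the same family, was dim in MMA and LLS and reached 953 in T (at least 5.28).

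Genes of muscle progenitors did not share 1 pattern over the stages. Pax7, which marks the progenitors that persist as satellite cells, was at 5.9 for MMA, 109 for LLS, 188 for LMA and 644 for T, dim in MMA and highest in T (at least 4.71). Its relative Pax3, used by migrating progenitors, was at 10.5 for MMA, 410.3 for LLS, 499 for LMA and 42.2 for T, and both E11.5 tissues exceeded T (at least 0.78). Lbx1, needed for migration of tongue muscle progenitors, was at 19.3 for MMA, 456 for LLS, 512 for LMA and 605 for T, at much the same level in LLS, LMA and T and dim in MMA (at least 4.62). The head muscle regulators Msc (at least 3.71) and Tbx1 (3.48) were higher in T, whereas Tcf21 (-1.59) and Six4 (-1.79) were lower. Eya1 was -0.39 by its brightest probe and -3.00 and -2.34 by the others. Mef2c (2.70), Mef2d (1.45) and Mef2a (2.15-fold), the last under 2-fold by another probe (0.76), were higher. Met, the receptor gene that guides migrating progenitors, was 1.62 higher. In pools of whole tissue, fewer cells of a type and less RNA per cell cannot be told apart.

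Thick filament genes had 16 of 18 members compared, and all 16 were at least 2-fold higher in T, 9 of them as bounds, and the list median was 8.01. Myh3, the embryonic myosin heavy chain gene, was at 5.9 for MMA, 612 for LLS, 3751.5 for LMA and 74368 for T. It was dim in MMA and brighter in LMA than in LLS, and T was at least 3024-fold above MMA (11.56, against 4.03 by another probe). Myh8, the perinatal heavy chain gene, was at 43.8 for MMA, 299 for LLS, 943 for LMA and 28631 for T (9.35). The order of the 4 tissues was the same, but 3 other Myh8 probes gave differences of 1.88 to 3.83.

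The myosin light chains stabilise and regulate the heavy chain. Myl4, the embryonic and atrial light chain gene, was at 193 for MMA, 497 for LLS, 2038 for LMA and 158877.5 for T (822-fold, 9.68), and its other probe gave 9.94. Myl1, a light chain of fast fibres, was at 53.0 for MMA, 1017 for LLS, 3832 for LMA and 83243 for T (10.62, with 6.45 to 11.57 over 3 other probes). Mylpf, the fast regulatory light chain gene, was at 163 for MMA, 452 for LLS, 1092 for LMA and 84026 for T (9.01), but its other probe differed by -0.40. In all 3 genes MMA was lowest, LMA exceeded LLS, and T stood far above LMA. The adult fast myosin genes Myh4 (at least 1.81, but -0.11 by another probe) and Myh1 (at least 1.14) reached scaled signals of 86.4 and 54.0 in T, and Myh1 was brighter in LMA (178).

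**Figure D2:**
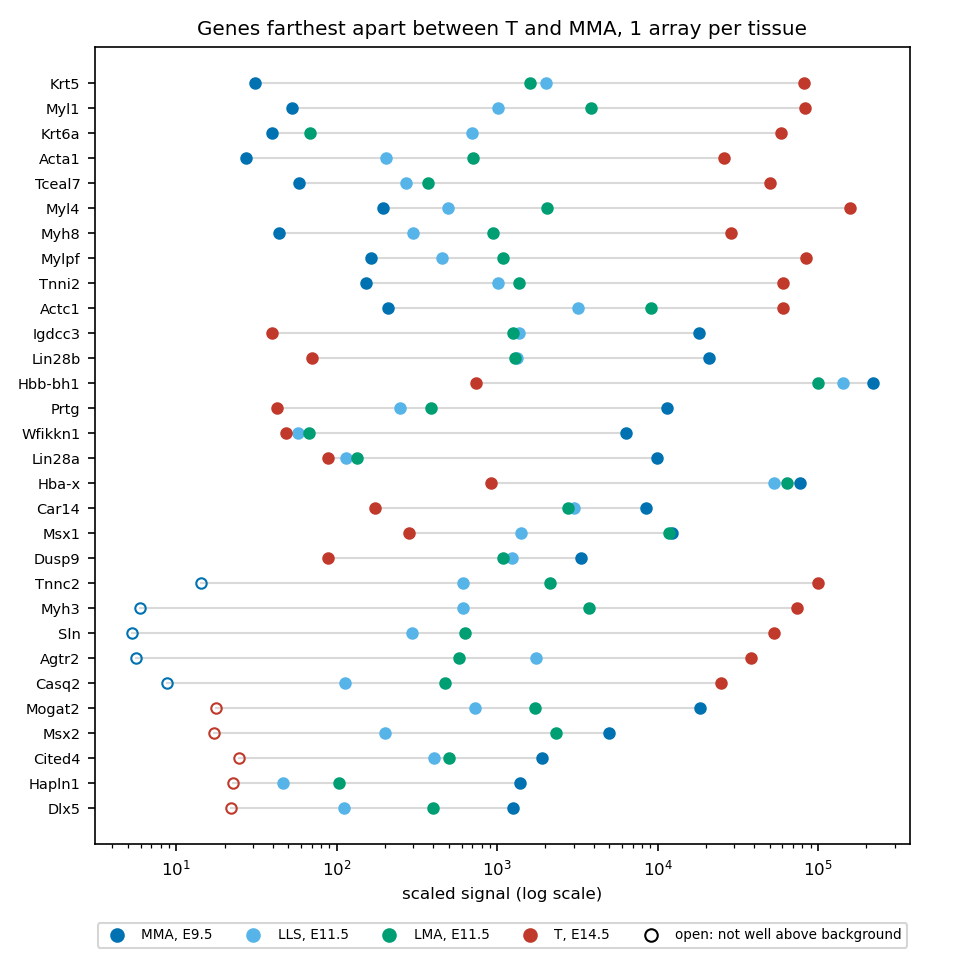
Scaled signal (log scale) on the 4 arrays of the 10 highest and 10 lowest genes measured in both MMA and T, followed by the 5 largest bounds in each direction, with 1 array per tissue and no error bars. Open circles are not well above background. In the upper group LLS and LMA lie between MMA and T, while for Msx1 the LMA point (11727) lies beside MMA (12295).

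Heavy chain genes also host microRNAs, which are cut from introns of the host transcript. Their mature sequences are shown for the 3 hosts that differed by at least 2-fold, with the seed (bases 2 to 8) in capitals, from RefSeq (GRCm38.p6).
mmu-miR-208b-3p, in Myh7: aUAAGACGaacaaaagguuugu
mmu-miR-208a-3p, in Myh6: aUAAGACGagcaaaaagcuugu
mmu-miR-499-5p, in Myh7b: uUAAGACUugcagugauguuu
The miR-208a and miR-208b seeds are the same. The arrays measured the host transcripts and not these microRNAs. Myh7, the slow and ventricular heavy chain gene, was at 334 for MMA, 121 for LLS, 328 for LMA and 4013 for T (3.59), lowest in LLS and high in T, with 0.61 by another probe. Myh6, the atrial heavy chain gene, was at 97.7 for MMA, 370.2 for LLS, 605 for LMA and 652 for T (2.74), with LMA close to T. Myh7b was at 46.5 for MMA, 47.4 for LLS, 58.6 for LMA and 323.5 for T (2.80), and here the 3 earlier tissues were alike in level.

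Thin filament genes were compared for all 18 members, with 15 at least 2-fold higher, 1 lower and a median of 6.44. Acta1, the skeletal alpha-actin gene, was at 27.2 for MMA, 202.5 for LLS, 712 for LMA and 25864 for T (9.89). Actc1, the cardiac alpha-actin gene that embryonic skeletal muscle also uses, was at 208 for MMA, 3185 for LLS, 9103 for LMA and 60580.0 for T (8.18). Both genes were lowest in MMA and highest in T, with LMA above LLS. The troponin genes of fast fibres, Tnni2 with 153 for MMA, 1009.6 for LLS, 1366 for LMA and 60613 for T (8.63) and Tnnc2 (at least 11.99), were accompanied by Tnnt3 (6.96) and by the slow fibre genes Tnnc1 (at least 7.79), Tnnt1 (6.36) and Tnni1 (6.09). Neb, which encodes the giant thin filament ruler nebulin, was at least 6.51 higher. The tropomyosin genes differed in direction, with Tpm2 (2.03) higher, Tpm3 (-1.14) lower and Tpm1 (1.23) higher by its brightest probe but between -1.64 and 0.12 by 3 others.

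Genes of the Z-disc, which anchors thin filaments, of the muscle membrane and of myoblast fusion were compared for all 22 members. In T, 19 were at least 2-fold higher and 0 lower, and the list median was 5.35, with 12 bounds. The caveolin gene Cav3 (at least 9.23), the Z-disc genes Csrp3 (at least 8.72) and Actn2 (7.51) and the titin cap gene Tcap (4.76) were among them. The fusion genes Mymx (at least 8.15) and Mymk (at least 5.39), which together let myoblasts merge into fibres, were dim in MMA. Dmd, the dystrophin gene, was higher (2.83), as were the sarcoglycan genes Sgca (at least 4.58) and Sgcb (1.57), while Sgcd was 0.10 by its brightest probe and 1.65 and 2.11 by the others. The member farthest the other way, Synpo2l (-0.49), was 3.66 by another probe.

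Excitation and contraction are coupled by the voltage sensor Cacna1s, the release channel Ryr1, the pump Atp2a1 and the calcium store proteins. Of 17 members, 14 were at least 2-fold higher and 0 lower, and the list median was 4.13. Of the 14, 5 were bounds, and the median of the 11 genes measured in both tissues was 3.515. Sln, whose product sarcolipin restrains the calcium pump, was at 5.3 for MMA, 294 for LLS, 633.5 for LMA and 53496 for T, a difference of at least 11.09. Casq2, a calcium store gene, was at 8.8 for MMA, 113 for LLS, 470.5 for LMA and 24734 for T, at least 9.97 by this probe and 3.31 by the other. Both were dim in MMA, brighter in LMA than in LLS and by far brightest in T. Cacna1s (6.71) and Atp2a1 (3.52) were higher too, as was Ryr1 by its brightest probe (4.32) but not by 2 others (-0.60 and 0.53), while the broadly expressed pump gene Atp2a2 was at 2166 for MMA, 1435 for LLS, 1491 for LMA and 1120.1 for T (-0.95).

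At the neuromuscular junction, 12 of 14 genes were at least 2-fold higher and 0 lower, and the list median was 3.96. Of the 12, 7 were bounds. Among the 7 genes measured in both tissues, 5 were higher and the median was 1.29. Chrng, the fetal gamma subunit gene of the acetylcholine receptor, was at 5.2 for MMA, 497 for LLS, 1229.6 for LMA and 6006 for T, at least 7.93 higher. Its adult counterpart Chrne was at 47.2 for MMA, 52.3 for LLS, 33.6 for LMA and 43.7 for T, low in all 4 tissues (-0.11). The clustering genes Rapsn (5.45), Dok7 (6.17) and Musk (at least 4.38) were higher.

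Genes of muscle energy supply split more. Of 20 members, 19 were compared, 12 were at least 2-fold higher and 1 lower, and the list median was 1.80. Of the 12, 6 were bounds, and the median of the 13 genes measured in both tissues was 0.51. Cox6a2, the muscle form of a cytochrome oxidase subunit, was at 5.3 for MMA, 16.3 for LLS, 75.2 for LMA and 14107 for T, dim in MMA and LLS (at least 9.16). Ckm, the muscle creatine kinase gene, was dim in all 3 earlier tissues and at 2772 in T (at least 6.82). The glycolytic genes Pgam2 (6.31) and Pygm (4.37) were higher, whereas the ubiquitous glycolytic genes Aldoa (-1.42) and Ldha (-0.86, and -2.66 by another probe) had the lowest differences of the list. Aldoa was at 191789 for MMA, 60011 for LLS, 74009 for LMA and 71506 for T, with MMA above the other 3 tissues.

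The epithelium of the tongue was the other source of very large differences. Of 27 genes of stratified epithelium, all compared, 23 were at least 2-fold higher in T and 0 lower, and the list median was 4.72. Of the 23, 7 were bounds, and the median of the 19 genes measured in both tissues was 3.40. Krt5, the keratin gene of basal cells, was at 31.0 for MMA, 2015 for LLS, 1599 for LMA and 81614 for T, which made it the highest of all genes measured in both tissues (2637-fold, 11.37). Its partner Krt14 was at 2634 for MMA, 2018 for LLS, 1429.5 for LMA and 82735.5 for T (4.97). Krt14 in MMA was thus above LLS and LMA, whereas Krt5 in MMA was lowest and close to the floor. Krt6a was at 39.3 for MMA, 700.1 for LLS, 68.3 for LMA and 58730.0 for T (10.55), low in MMA and LMA, intermediate in LLS and high in T. Krt15, another basal keratin gene, was at 625 for MMA, 11349.5 for LLS, 1499.9 for LMA and 87051 for T (7.12), with LLS well above LMA.

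The suprabasal keratin gene Krt13 was higher (at least 5.50), as were Krt4 (at least 3.17) and Krt1 (at least 2.72). Genes of hemidesmosomes and their matrix, Itgb4 (5.64), Lamb3 (6.01) and Col17a1 (at least 7.45), and of desmosomes, Pkp1 (at least 8.54), Dsp (3.40) and Dsc3 (2.92), were higher too. Trp63, the master regulator of stratified epithelium, was at 2691 for MMA, 3757 for LLS, 3203 for LMA and 3159.5 for T (0.23), with 0.74 to 1.68 by 3 other probes. By its brightest probe it was at similar levels in all 4 tissues, whereas the median over its probes was 0.98. Krt16 (0.00) and Krt10 (0.52) also stayed within 2-fold.

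Among 20 genes of the barrier and of keratinised layers, 12 were compared, 9 were at least 2-fold higher and 0 lower, and the list median was 2.18. Krtdap, a gene of differentiating keratinocytes, was at 39.2 for MMA, 21.0 for LLS, 26.9 for LMA and 5038 for T (7.01), and 2 other probes gave 6.23 and 6.46. Evpl (4.29) and Ppl (2.74), which build the cornified envelope, were higher, and Lor, the loricrin gene, was at least 1.99 higher. Simple epithelium genes were called at shares near those over all genes compared (18.1% higher and 13.8% lower). Of 20 members, 19 were compared, 3 were at least 2-fold higher and 4 lower, and the list median was -0.04, ranging from -0.04 to 0.29 over the alternative settings.

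The keratin pair of simple epithelium, Krt8 at 14856 for MMA, 6212 for LLS, 597 for LMA and 4757 for T (-1.64) and Krt18 at 41654.5 for MMA, 13509.6 for LLS, 3264.5 for LMA and 20545 for T (-1.02), was brightest in MMA and dimmest in LMA. Cldn6, an early epithelial claudin gene, was -2.04, and Cdh1, the E-cadherin gene, was 1.67 with LMA lowest (152). Pan-epithelial Epcam (0.38) stayed within 2-fold. The simple epithelium markers summed to a scaled signal of 69756 in MMA and 40503 in T, and the part of the epithelial share in these differences was not tested.

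**Figure D3:**
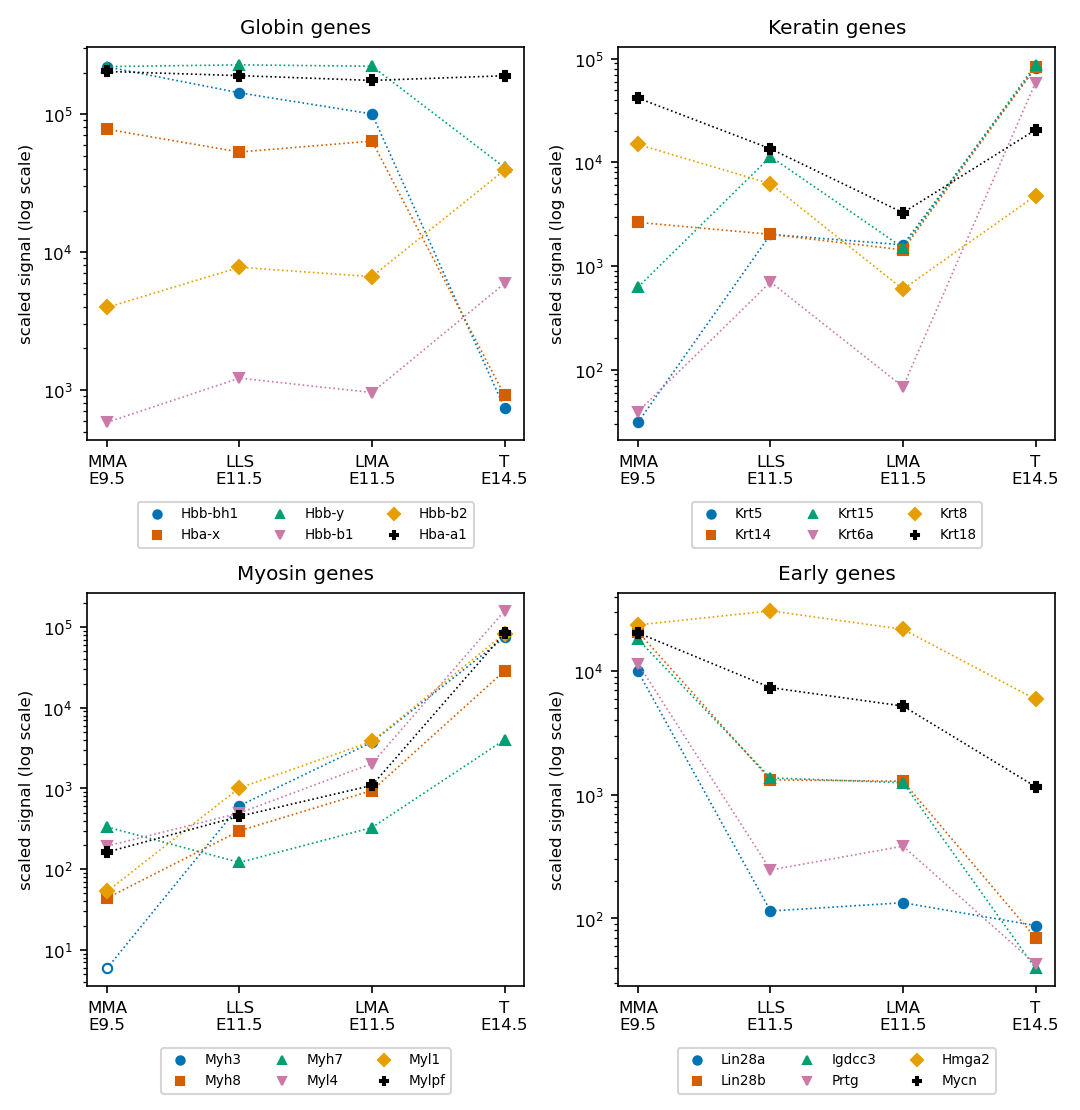
Scaled signal (log scale) on the 4 arrays for globin, keratin, myosin and early embryonic genes, 1 array per tissue, no error bars; open symbols are not well above background, and dotted lines only join points of a gene. Krt5, Krt14, Krt15 and Krt6a are highest in T and Krt8 and Krt18 in MMA, Myh3, Myh8 and Myl4 are highest in T, and Hbb-bh1 and Hba-x are lowest in T while Hbb-b1 and Hbb-b2 are highest there.

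Taste papillae form on the dorsal epithelium of the tongue as placodes that express Shh and Sox2. Of 14 genes of papillae, 10 were at least 2-fold higher in T and 1 lower, and the list median was 1.42, and 11 of the 14 also stand in other lists. Sox2 (1.45), Lgr5 (7.97-fold), Lgr6 (at least 4.25) and Bdnf (2.51), the neurotrophin gene of taste innervation, were higher. Foxa2, a gene of endoderm-derived epithelium, was at 1024 for MMA, 3127 for LLS and 8365.5 for T (3.03), and dim in LMA. Shh itself was at 559.5 for MMA, 2334 for LLS, 24.8 for LMA and 821 for T (0.55), highest in LLS and near the floor in LMA.

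Connective tissue genes were higher in T. Of 22 tendon genes and tendon matrix genes, 21 were compared, 16 were at least 2-fold higher and 0 lower, and the list median was 3.65, with 10 bounds. Dcn, which encodes the collagen-binding proteoglycan decorin, was at 142 for MMA, 2189 for LLS, 1009.8 for LMA and 30613.5 for T (7.75). Thbs4, a matrix gene of tendon and muscle junctions, was at 20.7 for MMA, 625 for LLS, 334 for LMA and 14153 for T, at least 9.17 higher, and Ogn (at least 9.36) and Fibin (at least 9.45) were likewise dim in MMA and brightest in T. Scx, the scleraxis gene of tendon progenitors, was at 376.5 for MMA, 3074.5 for LLS, 10179 for LMA and 2862 for T (2.93), and LMA was far above the other 3 tissues. Tnmd, a gene of mature tendon, was at least 0.51 higher, barely above background in T.

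Of 23 collagen genes, 22 were compared, 14 were at least 2-fold higher and 3 lower, and the list median was 2.74. Col1a1, the main fibrillar collagen of connective tissue, was at 352 for MMA, 2911.5 for LLS, 4635 for LMA and 15556 for T (5.47), with 5.24 and 5.35 by other probes. The microfibrillar collagen genes Col6a1 (6.30), Col6a2 (at least 6.43) and Col6a3 (at least 8.58) and the anchoring fibril gene Col7a1 (6.29) were higher. The 3 lower members were the cartilage collagen genes Col9a1 and Col2a1 and the basement membrane gene Col18a1 (-1.72). Col9a1 was at 4391 for MMA, 4436 for LLS, 4968.5 for LMA and 234 for T (-4.23), with the 3 earlier tissues alike. Of 22 genes of elastic fibres and matrix enzymes, 15 were at least 2-fold higher and 0 lower (median 1.43), led by the crosslinking enzyme gene Lox (6.37).

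Cartilage and bone genes were few and divided. In the cartilage list 10 of 12 were compared, 1 was at least 2-fold higher and 4 lower. Its median of -0.41 ranged from -0.76 to 0.20 over the settings. Sox9, the regulator of cartilage, was -1.88, Col2a1 was at 2108 for MMA, 2422 for LLS, 2654 for LMA and 687 for T (-1.62), and the link protein gene Hapln1 was -5.76 or lower. Acan, the aggrecan gene, was at least 0.24 higher. In the bone list 6 of 10 were compared, with Ibsp (at least 3.70) and Spp1 (at least 2.62) higher and Alpl (-2.20) and Dlx5 (-5.62 or lower) lower.

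Genes that pattern the arch were mostly lower in T in the distal and Iroquois lists and divided in the proximal list. Of 17 distal arch genes, 10 had a 2-fold lower level in T, 3 a 2-fold higher one, and the list median was -1.51. Msx1, a homeobox gene of arch mesenchyme, was at 12295 for MMA, 1402 for LLS, 11727 for LMA and 281 for T (-5.45). MMA and LMA were alike, LLS was much lower and T lowest. Msx2 had the same order at 4995 for MMA, 201 for LLS, 2333 for LMA and 17.1 for T, at least 196-fold lower in T, and its other probe gave -8.13. Prrx2, which acts in early mandibular mesenchyme, was at 25072 for MMA, 3535 for LLS, 9448 for LMA and 977 for T (-4.68). Hand1 (-3.72) and Hand2 (-1.75), which specify the distal arch, and Edn1 (-3.52), the endothelin gene that signals to it, were lower too. The 3 higher members were Osr1 (4.18), Gsc (2.06) and Foxf2 (1.05). Osr1 was at 34.2 for MMA, 5279 for LLS, 2206 for LMA and 618 for T, so LLS and LMA both exceeded T.

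The proximal arch list, with 7 of its 19 genes in other lists too, had 2 members at least 2-fold higher and 6 lower of 18 compared. Its median of -0.13 ranged from -0.36 to 0.26 over the settings. All 4 of its Dlx genes, homeobox genes that set the identity of upper and lower jaw, were lower. Dlx2 was at 4042 for MMA, 1091 for LLS, 515 for LMA and 144 for T (-4.81), Dlx1 was -3.12, and Dlx5 and Dlx6 were -5.62 or lower and -4.25 or lower. The tooth and stomach regulator Barx1 was -2.77. Six2 at 280.5 for MMA, 2580.3 for LLS, 5328 for LMA and 1243 for T (2.15) and Pitx1 (2.14-fold) were the 2 higher members, and Six2 peaked in LMA. Of 6 Iroquois homeobox genes, 5 were compared and 4 were lower, with Irx3 at 805 for MMA, 60.8 for LLS, 1345 for LMA and 49.9 for T (-4.01), high in MMA and LMA and low in LLS and T.

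Neural crest genes, which mark the mesenchyme's origin, went both ways, with 6 of 18 at least 2-fold higher and 5 lower (median 0.71). The glial lineage genes Ngfr (4.02), Ednrb (3.92), Sox10 (3.38) and Erbb3 (2.71) were higher. The mesenchymal genes Twist1 (-2.27), Snai1 (-1.91) and Sox9 were lower, and Twist2 (-0.18) and Snai2 (0.66) stayed within 2-fold. In the tooth list 6 of 16 compared genes were higher and 6 lower, with Pax9 at 48.7 for MMA, 541 for LLS, 79.9 for LMA and 3355 for T (6.11, and 2.20 by another probe) against Fgf8 at 2371.5 for MMA, 106 for LLS, 134 for LMA and 71.1 for T (-5.06). Fgf8, which encodes a signal of the young oral epithelium, was thus high in MMA and low in the other 3 tissues.

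**Figure D4:**
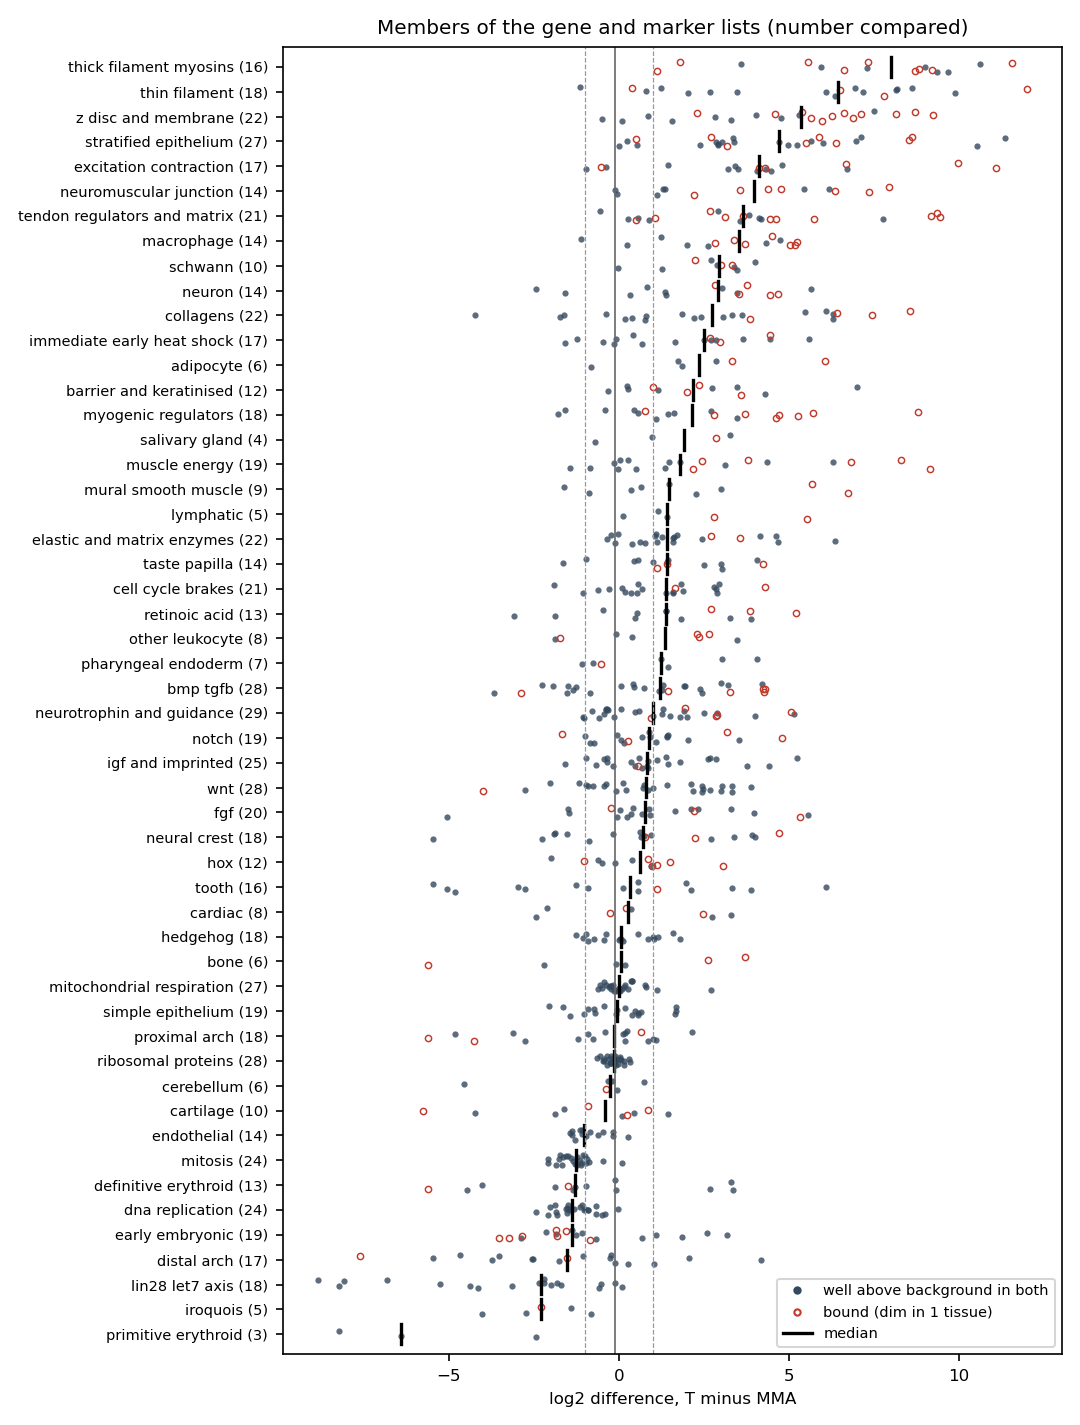
Log2 difference, T minus MMA, of each compared member of the gene and marker lists, sorted by median, with the number compared in brackets. Filled points were well above background in both tissues, open points are bounds, black bars are medians, the solid vertical line is the median of all genes compared (-0.10) and dashed lines mark 2-fold. Lists of muscle structure are at the top (8.01 for thick filament genes) and embryonic globins (-6.41) at the bottom.

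Genes of the early embryo were mostly lower in T. LIN28A and LIN28B are RNA-binding proteins that block the maturation of let-7 microRNAs, and let-7 in turn represses genes such as Hmga2, Igf2bp1 and Lin28b itself. The let-7 family shares 1 seed, shown in capitals for members that lie inside transcripts measured here (RefSeq, GRCm38.p6).
mmu-let-7g-5p, in Wdr82: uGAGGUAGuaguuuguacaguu
mmu-let-7f-5p, in Huwe1: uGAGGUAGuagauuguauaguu
mmu-miR-98-5p, in Huwe1: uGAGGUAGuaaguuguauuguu
The host transcripts Wdr82 at 2559 for MMA, 2622 for LLS, 3077 for LMA and 2539 for T (-0.01) and Huwe1 at 7684 for MMA, 5641 for LLS, 5938 for LMA and 4186 for T (-0.88) stayed within 2-fold. Mir100hg, which holds let-7a-2 and miR-125b, was at 267 for MMA, 2479 for LLS, 4393 for LMA and 866 for T (1.70), highest in the E11.5 tissues. The mature microRNAs were not measured.

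Of 18 genes of this axis, 14 were at least 2-fold lower in T and 0 higher, and the list median was -2.28, and all 18 were well above background in both tissues. Lin28b was at 20843 for MMA, 1322 for LLS, 1288.5 for LMA and 69.8 for T (-8.22, and -4.63 by another probe). Lin28a was at 9957 for MMA, 115 for LLS, 134 for LMA and 87.7 for T (-6.83), and nearly all of its difference lay between MMA and the E11.5 tissues, whereas Lin28b also differed between E11.5 and T. Igdcc3, an immunoglobulin superfamily gene of early embryos, was the lowest of all genes measured in both tissues at 18108 for MMA, 1371 for LLS, 1253 for LMA and 39.5 for T (458-fold lower, -8.84). Prtg, its relative protogenin, was at 11527 for MMA, 247 for LLS, 385 for LMA and 42.7 for T (-8.08).

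Hmga2 and Mycn, both known let-7 targets, differed less than Lin28b. Hmga2, a chromatin protein gene, was at 23692 for MMA, 30757 for LLS, 21821 for LMA and 5932 for T (3.99-fold lower), with LLS highest and only T low. Mycn, a growth regulator, was at 20417 for MMA, 7367 for LLS, 5224 for LMA and 1165 for T (-4.13). Igf2bp1 (-2.20), Igf2bp3 (-1.71), Arid3a (-2.20) and Arid3b (-3.14) were lower, while Myc (0.10) and Trim71 (-0.10) stayed within 2-fold. Dusp9, which dephosphorylates MAP kinases, was at 3336 for MMA, 1234 for LLS, 1089 for LMA and 87.7 for T (-5.25). Of 24 other early embryonic genes, 19 were compared, 12 were lower and 4 higher (median -1.37). Of the 12 lower, 6 were bounds. Among the 12 genes measured in both tissues, 6 were lower and 4 higher, and the median was -0.87. The de novo methyltransferase genes split, with Dnmt3b at 7778 for MMA, 1994 for LLS, 1791 for LMA and 1061.5 for T (-2.87). Dnmt3a was 3.19 by its brightest probe and -2.40 by the other.

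Other genes among the lowest differences came from no list. Wfikkn1, whose protein binds myostatin and GDF11, was at 6376 for MMA, 57.7 for LLS, 67.6 for LMA and 48.1 for T (-7.05), high in MMA and low in the later tissues. Car14, a membrane carbonic anhydrase gene, was at 8523 for MMA, 3033 for LLS, 2765 for LMA and 174 for T (-5.62, with -4.25 and -1.47 by other probes). Mogat2, a monoacylglycerol acyltransferase gene, was -9.50 or lower by the brightest probe and -2.08 by the other, and Cited4 was -6.23 or lower. On the high side, Tceal7 was at 57.8 for MMA, 272 for LLS, 368 for LMA and 49876 for T (9.75). Agtr2, the type 2 angiotensin receptor gene of fetal mesenchyme, was at 5.6 for MMA, 1738 for LLS, 582 for LMA and 38499 for T, at least 10.61 higher, with LLS above LMA. Probe positions in build mm9, per the file headers, were chr15:101537514-101537573 for Krt5, chr9:65034779-65034838 for Igdcc3, chr10:45096468-45096527 for Lin28b, chrX:21065805-21065864 for Agtr2 and chrX:132760580-132760639 for Tceal7.

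Genes of cell division were lower in T. Of 24 genes of DNA replication, 16 were at least 2-fold lower and 0 higher, and the list median was -1.36. Of 24 genes of mitosis, 18 were at least 2-fold lower and 0 higher, and the list median was -1.26. Both medians were nearer to 0 after cyclic loess (-0.96 and -0.84), and under quantile normalization and in the authors' value table the mitosis median was -0.92 and the replication median just short of 2-fold. In each of these 3 settings 10 mitosis genes were 2-fold lower, against 18, and 12 replication genes, against 16. Mcm10, which helps to load the replication fork, was at 12563.5 for MMA, 5468 for LLS, 5638 for LMA and 2341 for T (-2.42). Plk1, a kinase of mitotic entry, was at 24297 for MMA, 13017.5 for LLS, 15191 for LMA and 5782 for T (-2.07). In both genes LLS and LMA were alike and lay between MMA and T. Mki67, the proliferation marker Ki-67, was at 20082 for MMA, 19267 for LLS, 22479.7 for LMA and 14475 for T (-0.47), within 2-fold.

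Of 22 genes of cell cycle control and arrest, 21 were compared, 11 were at least 2-fold higher and 2 lower (median 1.40). Of the 11, 2 were bounds, and the median of the 19 genes measured in both tissues was 0.68. Cdkn1c, the imprinted p57 inhibitor gene, was at 24510.1 for MMA, 161242 for LLS, 130723 for LMA and 178841 for T (2.87), and the 3 later tissues were alike. Cdkn2c (at least 4.30), Rb1 (2.95), Btg2 (2.81) and Cdkn1a (3.03-fold) were higher. The 2 lower members were Ccnd1 (-1.89) and Ccne1 (-1.06), cyclin genes of the entry into the cycle. In the list of growth factor and imprinted genes, 10 of 25 were higher and 1 lower (median 0.84), with Igf1 at 385.5 for MMA, 3169 for LLS, 2929.6 for LMA and 5243 for T (3.77, but 0.43 and 1.79 by other probes) and Mest (-1.59) the lower one.

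Signalling genes differed in both directions. Among 18 Hedgehog genes, 5 were at least 2-fold higher and 2 lower, and the list median was 0.06. Over all genes compared, 18.1% were higher and 13.8% lower. The target genes were divided, with Gli1 at 3373 for MMA, 8211.5 for LLS, 2597 for LMA and 6806 for T (1.01) against Ptch1 at 2563 for MMA, 3452 for LLS, 945 for LMA and 1323.5 for T (-0.95) and Hhip (-1.25, and -0.59 by another probe). In both Gli1 and Ptch1, LLS was the highest tissue. Among 28 Wnt genes, 13 were higher and 4 lower (median 0.80). The epithelial ligand genes Wnt10a (3.89), Wnt7b (3.33) and Wnt4 (2.12) and the inhibitor genes Sfrp5 (3.33), Wif1 (3.03) and Dkk2 (2.69) were higher, and the ligand gene Wnt5a (-2.03), the inhibitor gene Dkk1 (-3.98 or lower) and the transcription factor gene Tcf7 (-2.75) were lower. Wnt10a was at 315 for MMA, 294 for LLS, 301 for LMA and 4669 for T, alike in the 3 earlier tissues.

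In the BMP and TGF-beta list, 15 of 28 were higher and 8 lower (median 1.22). Of the 15, 5 were bounds, and the median of the 22 genes measured in both tissues was 0.59. The TGF-beta ligand genes Tgfb3 (4.20), Tgfb2 (3.21) and Tgfb1 (1.26), the muscle growth inhibitor gene Mstn (at least 4.25) and its antagonist gene Fst (at least 4.29) were higher. The BMP target genes Id1 (-2.26), Id2 (-1.93), Id3 (-1.51) and Smad6 (-1.50) and the decoy receptor gene Bambi (-3.66) were lower. Id1 was at 17158 for MMA, 5250.3 for LLS, 5449.8 for LMA and 3587 for T, with MMA above all later tissues. The ligand genes Bmp2 (3.02) and Bmp5 (1.30) were higher and Bmp4 (-1.24) lower.

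Among 24 FGF genes, 20 were compared, 8 were higher and 3 lower (median 0.79). Fgfr4, a receptor gene of myoblasts, was at 52.6 for MMA, 376 for LLS, 536 for LMA and 2506 for T (5.57, and higher by other probes too). The mesenchymal ligand gene Fgf7 was at least 5.32 higher, while Fgf10 (-1.46) and Fgf8 were lower. The feedback genes Spry2 (0.43), Dusp6 (0.04) and Etv5 (-0.06) stayed within 2-fold. For retinoic acid, 13 of 15 were compared, 8 were higher and 2 lower (median 1.39). Of the 8, 3 were bounds, and the median of the 10 genes measured in both tissues was 0.96. The synthesis gene Aldh1a2 was at 12.3 for MMA, 2649 for LLS, 2385 for LMA and 359.5 for T (at least 3.87), highest at E11.5, and Aldh1a3 (at least 5.20) was highest in T. The binding protein gene Crabp1 (-3.08) was among the lower members. Of 19 Notch genes, 8 were higher and 1 lower (median 0.88), led by the target gene Heyl (at least 4.79) and the modifier gene Lfng (3.55).

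Nerve genes were higher in T. Of 14 neuron markers, 10 were at least 2-fold higher and 2 lower (median 2.92). Of the 10, 5 were bounds, and the median of the 9 markers measured in both tissues was 1.37. Dcx, a gene of migrating and growing neurons, was at 25.4 for MMA, 378 for LLS, 278 for LMA and 1278 for T (5.65, with 2.11 and 3.23 by other probes), and Stmn2 (3.47), Nefl (3.03) and Prph (at least 4.68) were higher, whereas Isl1 (-2.43) and Gap43 (-1.59) were lower. Of 11 Schwann cell markers, 10 were compared, 9 were higher and 0 lower (median 2.95), among them Sox10 at 33.0 for MMA, 214 for LLS, 176.5 for LMA and 343 for T. In the list of neurotrophin and guidance genes, 15 of 29 were higher and 2 lower (median 1.02). Ntn1 (5.15), the netrin gene, and Ntrk3 (at least 5.06), the receptor gene for neurotrophin 3, were in front. Of the 15, 4 were bounds, and the median of the 24 genes measured in both tissues was 0.54.

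Globin genes differed by type. In mouse embryos red cells of the yolk sac give way to those of the fetal liver over these days. The part of that change in the differences was not tested. The 3 embryonic globin genes of primitive red cells were all at least 2-fold lower in T, and the list median was -6.41. Hbb-bh1 was at 219995 for MMA, 142561 for LLS, 100217 for LMA and 741 for T (-8.21, and -5.03 by another probe) and Hba-x at 77604 for MMA, 53088 for LLS, 63699 for LMA and 915 for T (-6.41), both high in MMA, LLS and LMA and low in T. Hbb-y was at 220869 for MMA, 227275 for LLS, 222185 for LMA and 41071.5 for T (-2.43). The adult globin genes Hbb-b1 at 583 for MMA, 1219 for LLS, 959 for LMA and 5922 for T (3.35) and Hbb-b2 at 3969.5 for MMA, 7754 for LLS, 6634 for LMA and 39281 for T (3.31) were higher in T. Hba-a1, which primitive and definitive red cells both use, was at 203746 for MMA, 189998 for LLS, 175305 for LMA and 189559 for T (-0.10). Globin genes are near copies of each other, so probes of 1 gene may take signal from another.

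Of all 13 definitive erythroid markers, 3 were higher and 7 lower (median -1.30). Of the 7, 2 were bounds, and the median of the 11 markers measured in both tissues was -0.95. Gata1, the erythroid master regulator, was at 1250.3 for MMA, 255 for LLS, 326 for LMA and 5.6 for T, -5.62 or lower, and Klf1 (-4.47) and the membrane gene Slc4a1 (-4.02) were lower. Bcl11a, a repressor of embryonic globin genes, was at 279.8 for MMA, 4139 for LLS, 4395 for LMA and 1797 for T (2.68), highest at E11.5. The 3 primitive markers summed to a scaled signal of 518468 in MMA and 42728 in T, and the definitive list to 408012 and 413546. The definitive list includes Hba-a1 (-0.10), which primitive red cells use too, and Hba-a2 (-0.09). Its sum therefore does not measure definitive red cells alone. The part of blood in the other differences was not tested.

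Of 14 macrophage markers, 12 were at least 2-fold higher in T and 1 lower, and the list median was 3.55, with 7 bounds. C1qc, a complement gene of tissue macrophages, was at 24.6 for MMA, 377 for LLS, 405 for LMA and 926 for T (at least 5.23), and Lyz2 was at 48.1 for MMA, 280.5 for LLS, 311 for LMA and 1284.5 for T (4.74, and 0.57 by another probe). Both were higher in all later tissues than in MMA. The pan-leukocyte gene Ptprc (-1.12) was the lower member by its brightest probe, with 0.86 by the other, and Cd68 (0.24) stayed within 2-fold. Endothelial markers were lower or within 2-fold, with 7 of 14 at least 2-fold lower and 0 higher (median -1.03). The count lower depended on the scaling. It was 3 under normexp (median -0.705), 4 after cyclic loess (-0.79) and 9 under quantile normalization (-1.04). Kdr, a receptor gene for VEGF, was at 3029 for MMA, 1527 for LLS, 3728 for LMA and 1123 for T (-1.43), LMA being highest, and Pecam1 (0.26) and Cdh5 (-0.16) stayed within 2-fold. Of 5 compared lymphatic markers, 4 were higher and 0 lower, among them Ccl21a (at least 5.55) and Lyve1 (at least 2.79). Mural cell markers had 5 of 9 higher and 1 lower, from Kcnj8 (at least 6.73) to Myh11 (-1.62, but 0.70 by another probe).

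Other tissues that a dissection could have carried along were looked at in the same way. Of 10 cardiac markers, 8 were compared, 3 were higher and 2 lower. Myl7, the atrial light chain gene, was at 568 for MMA, 88.6 for LLS, 55.9 for LMA and 132 for T (-2.11), highest in MMA, while Nkx2-5 at 222 for MMA, 718 for LLS, 708 for LMA and 2166 for T (3.29) was highest in T. Of 7 compared pharyngeal endoderm markers, 4 were higher and 1 lower (median 1.25), led by Foxa1 at 298 for MMA, 3142 for LLS, 55.3 for LMA and 4945 for T (4.05). The extraction text of the labels names cerebellum, so 12 cerebellar markers were looked up. Of these, 6 were not well above background in either tissue, among them Atoh1, Neurod1 and Gabra6. Cbln1 was the 1 member at least 2-fold different, at 880.5 for MMA, 113 for LLS, 64.0 for LMA and 37.3 for T (-4.56). Salivary gland markers had 2 of 4 compared genes higher and 0 lower, with Aqp5 and Bhlha15 dim in both tissues. Leukocyte markers other than those of macrophages had 4 of 8 higher and 2 lower (median 1.35), among them the mast cell genes Cpa3 (at least 2.65) and Cma1 (at least 2.30). Of the 4 higher, 3 were bounds, and the 4 markers measured in both tissues had a median of 0.16. Of 4 Y-linked genes, listed after the values were seen, Uty (-1.70) and Kdm5d (-1.43) were lower and Ddx3y (-0.17) and Eif2s3y (-0.69) within 2-fold, and Xist was 0.48. The labels do not give the sexes in the pools. Adipocyte markers had 5 of 6 compared genes higher, with Fabp4 (at least 6.06) first, and Adipoq and Plin1 were not well above background in either tissue.

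Housekeeping groups give the scale of what did not differ by 2-fold. Of 28 ribosomal protein genes, 0 were 2-fold higher or lower, and the list median was -0.15, ranging from -0.15 to 0.33 over the settings. Of 27 genes of mitochondrial respiration, 2 were higher and 0 lower (median 0.00, from -0.06 to 0.44), the regulator gene Ppargc1a (2.72) and Cox6c (1.12). Immediate early and heat shock genes, which also respond to handling of tissue, had 10 of 17 higher and 2 lower (median 2.51). Of the 10, 3 were bounds, and the median of the 14 genes measured in both tissues was 1.17. Klf4, which also acts in epithelial differentiation, was at 265 for MMA, 1494 for LLS, 663 for LMA and 12903 for T (5.60). Egr1 was at least 4.45 higher, and Hspb1 (4.44) was higher. Their part in other differences was not tested. Of 29 Hox genes, 17 were not well above background in either tissue, and of 12 compared 3 were higher and 2 lower. All 3 higher genes were bounds. Among the 6 measured in both tissues, 0 were higher and 1 lower (median -0.29). The shares over all genes compared were 18.1% and 13.8%.

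The E11.5 swellings, labelled medial as well, lay between the ends for most genes that differed by 2-fold. The genes were picked for a difference between MMA and T, which by itself favours a place between them. The share over all genes compared was not counted. Of 2031 genes at least 2-fold higher in T and also measured in LLS and MMA, LLS lay between MMA and T for 1538, beyond T for 226 and on the far side of MMA for 267. Of 2145 genes at least 2-fold lower in T, LLS lay between for 1896, beyond T for 109 and on the far side of MMA for 140. Thick filament genes had the larger median difference after E11.5, 1.39 for LLS minus MMA and 6.07 for T minus LLS. Of the 16 genes, 9 were dim in MMA. The first median takes those bounds at their value and can understate the step before E11.5. Collagens had the larger share before E11.5 (1.53 and 0.70). Distal arch genes went both ways before E11.5 (median 0.53), Osr1 being higher and Msx1, Msx2 and Prrx2 lower in LLS than in MMA. After E11.5 their median was -2.32.

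Probes of a gene bound different parts of its transcripts, so agreement between them was counted. Of 2298 genes that differed by 2-fold and had another usable probe, the others gave the same direction for 94.1% and also a 2-fold difference for 59.9%. From the 262 probes spotted 10 times per array, a difference between spots had a median SD of 0.064. That covers the error of a spot alone, and the spread between pools of embryos is not known.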

How the data were processed

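RNA of 4 pooled tissues was hybridised in Cy3 per the labels' protocols, on 4 arrays of 1 slide, per the file headers. Per the file headers, the deposited intensity of each spot is Agilent Feature Extraction's processed signal, background-subtracted and detrended, with flags (a 0 or 1 score per spot) and no normalization between arrays. The authors' deposited value table holds linear intensity normalized between arrays by a method not given in the sources used here. It served as an alternative.

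Control spots and flagged outliers were left out and spots of a probe averaged. Levels are log2 processed signal minus the array's 75th percentile over probes. Probes dim in a tissue were raised to the lowest value well above background on that array. A gene was represented by its brightest probe over the 4 arrays, and counted at a 2-fold difference. Probes were named through the RefSeq table of GRCm38.p6 (33899 by accession, 9458 by symbol, 488 by an older symbol), 1981 kept the file's symbol and 10775 had no name. Motif searches and microRNA hosts used the same table's promoter and microRNA sequences. The counting step was also run on simulated arrays, with a fixed detection cut and without the rule on the direction of bounds. That run does not check the full procedure. R 4.3.3, limma 3.58.1, Python 3.11.15, pandas 2.3.3 and numpy 2.4.6 were used.

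The genes named are the 10 highest and 10 lowest differences measured in both tissues, the 5 largest bounds each way, and from each gene list the members farthest in each direction and those with a defining role. The members and lists were chosen with earlier results of these data known, and results for a few list members are not reported here. With 1 array per tissue no test was made, and the number of arrays limits the precision.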

Additional observations from a re-analysis of the deposited data

How the results depend on the processing

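Normexp background correction, quantile normalization, cyclic loess, no filter on dim probes, probes measured in both tissues, the median over a gene's probes, the authors' value table and a 4-fold threshold were tried. The count of genes higher in T was 2069 among genes measured in both tissues and 1546 at 4-fold, against 3144, and fewer genes could be counted in each by construction. The count lower in T was 1425 after cyclic loess and 372 at 4-fold, against 2402. The cause of the cyclic loess difference was not tested. Of the genes named, 1 reversed, Tpm1, which was -0.53 by the median over its probes against 1.23. List medians kept their sign in these settings except for bone, cardiac, cartilage, cerebellum, Hox, mitochondrial, proximal arch, ribosomal and simple epithelium genes, all near 0 in at least 1 setting. Sizes moved more. Of 37 lists with a median past 2-fold, the median was smaller by over 1.5 times for 15 after normexp, for 14 among genes measured in both tissues, for 5 with no filter and for 2 by the median over probes. Among genes measured in both tissues, where dim genes are left out by construction, 11 of the 37 medians were under 2-fold. Medians there included 1.29 for the neuromuscular junction, 0.51 for muscle energy, 0.84 for muscle regulators, 1.37 for neurons and 0.16 for other leukocytes. Over the genes named and the list members, a 2-fold call ended for 50 genes under normexp and 34 under cyclic loess. It ended for 32 each under quantile normalization and the authors' table, and for 23 by the median over probes. Among these were Krt18, Bmp4, Ccne1, Ptprc and Tpm3 under quantile normalization, cyclic loess and the authors' table, and Aldoa under cyclic loess. Myh1 lost its call under quantile normalization, the authors' table and normexp. Under normexp Foxf2, Krt18, Lor, Myh4, Myh11, Tcf21 and Tgfb1 lost theirs too. By the median over probes it ended for Ryr1 (0.53), Dnmt3a (0.395), Mef2a (0.93), Myh4 (0.85), Myh11 (-0.46) and Hhip (-0.92), among others. No paired analysis was possible because each tissue has 1 array, and for the same reason no replicate could be left out. Signal over background limits the comparison, since 9341 genes were dim in both tissues and bounds replace values for 1326 of the genes that differed by 2-fold.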

Other observations

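Some genes outside the lists above formed groups, and these were chosen after their values were seen. All 4 nuclear factor I genes, which encode transcription factors of differentiating cells, were higher in T. Nfix was at 56.2 for MMA, 406 for LLS, 671.5 for LMA and 3359 for T (5.90) and Nfib at 473 for MMA, 4653 for LLS, 5213 for LMA and 12102.5 for T (4.68). Nfia was 5.06, with 1.17 to 3.59 by its other probes, and Nfic was 3.61. In the 2 genes shown by tissue, LLS and LMA lay between MMA and T.

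Further genes outside the lists, also picked after their values were seen, were lower in T. Slc16a3, a lactate exporter gene, was at 16834 for MMA, 1507 for LLS, 2108 for LMA and 599.6 for T (-4.81), and Slc2a3, a glucose transporter gene, was at 10864.5 for MMA, 647 for LLS, 1671 for LMA and 432 for T (-4.65). Both were far higher in MMA than in the 3 later tissues. The glycolytic gene Hk2 (-1.94) and the kinase gene Pdk1 (-1.87) were lower by less, and Hk1 was 0.67. The blood genes Tal1 (-3.17), Nfe2 (-4.70 or lower), Gfi1b (-3.86 or lower) and Epor (-3.06) were each lower, whereas Bcl11a (2.68) was higher. H2-Ab1, a class II histocompatibility gene of antigen-presenting cells, was at 56.4 for MMA, 59.9 for LLS, 14.9 for LMA and 2060.1 for T (5.19), high in T alone.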
